A study of Mus musculus with 18 samples.

Results

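The comparison described here asked which liver transcripts changed on ribosomes when lycopene was added to a high-fat diet. It set 3 livers of mice whose high-fat diet contained lycopene (HFD+LYC) against 3 livers of mice fed the high-fat diet alone (HFD), in the 6 libraries of ribosome-bound RNA among the 18 libraries of the study. All mice were male, wild type and of the C57BL/6 strain; each diet began at 8 weeks of age and lasted 8 weeks, so livers were taken at 16 weeks. The other libraries came from the total RNA of the same 6 livers (mRNA) and from both kinds of RNA of 3 livers on normal chow (control). Each library listed a read count for 24539 genes, of which 15433 had a read in at least 1 of the 6 ribosome-bound libraries and 11660 passed the filter on low counts and were tested. Replicates are separate livers, per the study's design text. Levels are read counts scaled to library size with TMM factors (CPM), and a gene was called when edgeR's quasi-likelihood test gave a Benjamini-Hochberg adjusted p under 0.05 over all tested genes.

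Lycopene is the red carotenoid of tomato, a fat-soluble pigment that the liver stores and that has no provitamin A activity. To isolate RNA under translation, a lysate treated with cycloheximide, which holds ribosomes on the message, is spun through a sucrose cushion, and the pellet of ribosome-nascent chain complexes (RNC) is collected. A transcript's level in this fraction depends both on how much of it the cell holds and on how much of it sits on ribosomes. The RNC change is therefore set beside the mRNA change of the same livers for a part of the genes and lists. For a gene named without an mRNA value, the mRNA may have changed as well. Hepatocytes devote much of this machinery to proteins secreted into the blood, which are made on the endoplasmic reticulum.

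The 3 HFD+LYC RNC libraries stood apart from all others. They held reads of 8940, 9567 and 10037 genes, against 13324 to 14450 in the HFD and control RNC libraries, although their totals of 4533729 to 11300925 reads overlapped the 5535100 to 12742436 of HFD. Genes listed with 1 to 5 reads numbered 234 to 343 in HFD+LYC RNC and 2019 to 2216 in HFD RNC. Among genes at 1 to 2 CPM in HFD RNC, 29.3% had no read in any HFD+LYC RNC library, and none was without reads in all control RNC libraries. Of genes at 10 to 20 CPM in HFD RNC 11 of 2034 had no read in any HFD+LYC RNC library, of those at 20 to 50 CPM 5 of 1932, and of those at 50 to 100 CPM 1 of 795. The mRNA libraries of the same HFD+LYC livers held 13791 to 14876 genes. A gene is called well-counted below where its 6 compared libraries averaged 10 CPM or more. Counts and medians of gene lists cover all tested members, also those under 10 CPM, and are set against all tested genes, and well-counted members are given apart where they are few. Of well-counted genes 17.3% were called higher, and of genes under 10 CPM 1.79%. For a list made mostly of well-counted genes, 17.3% is the closer share. TMM factors were 0.428, 1.15 and 0.836 in HFD+LYC replicates 1, 2 and 3. All 12 hepatocyte markers were detected in both groups. All 12 were well-counted. Of them 5 were called higher and none lower, against 9.34% and 17.4% of all genes and 17.3% higher among well-counted genes. Their median log2 fold change was 1.04 in RNC and -0.64 in mRNA.

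**Figure D1:**
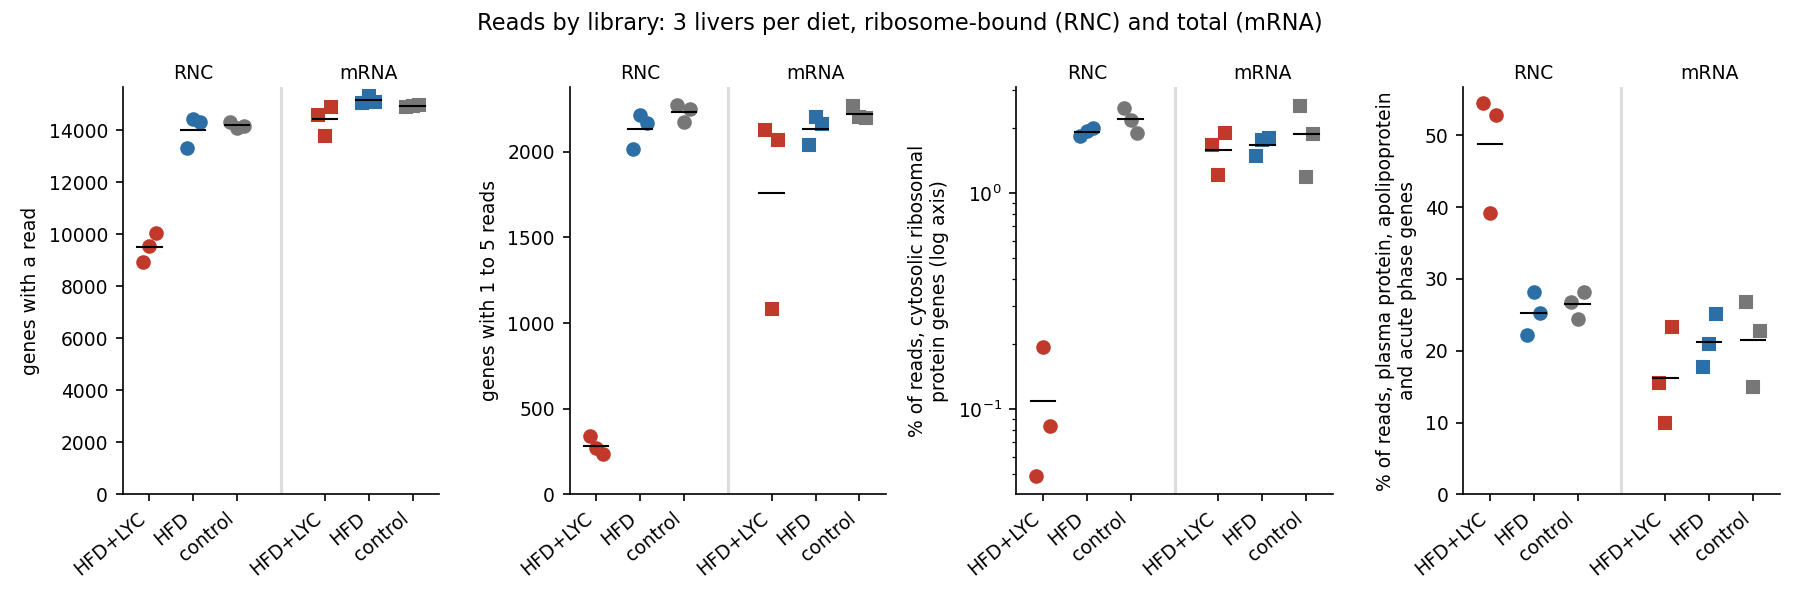
Each point is 1 library and each line the mean of 3, for ribosome-bound RNA (circles) and total RNA (squares); the panels give genes with a read, genes with 1 to 5 reads, and the percentage of reads from cytosolic ribosomal protein genes (log axis) and from genes of secreted liver proteins. The 3 HFD+LYC RNC libraries lie apart from all other RNC libraries in each panel, and the mRNA libraries of the same livers do not lie apart in the ribosomal protein panel.

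Of the 11660 genes tested, 1089 were called higher (9.34%) and 2031 lower (17.4%) in HFD+LYC RNC. Among the 5686 well-counted genes the split was even, with 982 higher (17.3%) and 1026 lower, 35.3% called in all, and a median log2 fold change of -0.02. Among the 5974 genes under 10 CPM only 107 were higher (1.79%) and 1005 lower (16.8%), and 773 of all 2031 genes called lower had no read in any HFD+LYC RNC library. In the mRNA of the same livers 252 of 12664 genes were higher (1.99%) and 116 lower (0.916%). Without HFD replicate 2 or 3 the calls among well-counted genes came to 1314 or 1214, where all libraries gave 2008. The mRNA calls, 368 in all, came to 66 without HFD+LYC replicate 1 or 2, to 104, 84 and 72 without HFD replicate 1, 2 and 3, and to 606 and 161 without control replicate 2 and 3. By DESeq2 and with the replicate block the mRNA calls came to 1491 and 1457. The RNC calls, 3120 in all, came to 4088 and 2734 under the same settings.

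The GC content of a transcript moved with its change. Among the well-counted genes that code for no ribosomal protein, the fifth lowest in GC (32.9% to 44.5%) had 4.89% called higher and 34.7% lower, and the fifth highest (55.9% to 68.7%) had 36.7% higher and 2.54% lower. Across these 5516 genes, which share the same 6 libraries, Spearman's rho of GC content with the RNC change was 0.517, and with the mRNA change it was 0.420. Transcript length had a rho of 0.0381 with the RNC change. A fit with a GC correction for each library, added after the data were seen, moved the median log2 fold change of all genes to 0.36, where it was -0.29 without the correction, and called 1935 genes higher and 1163 lower. Where it ended a call, that is said beside the gene, and list medians from it are given relative to the median of all genes. List counts from it are to be read against its 1935 higher and 1163 lower of 11567 genes. Among well-counted genes it called 1692 higher and 334 lower of 5655. The part of GC content in the other results was not tested beyond this.

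**Figure D2:**
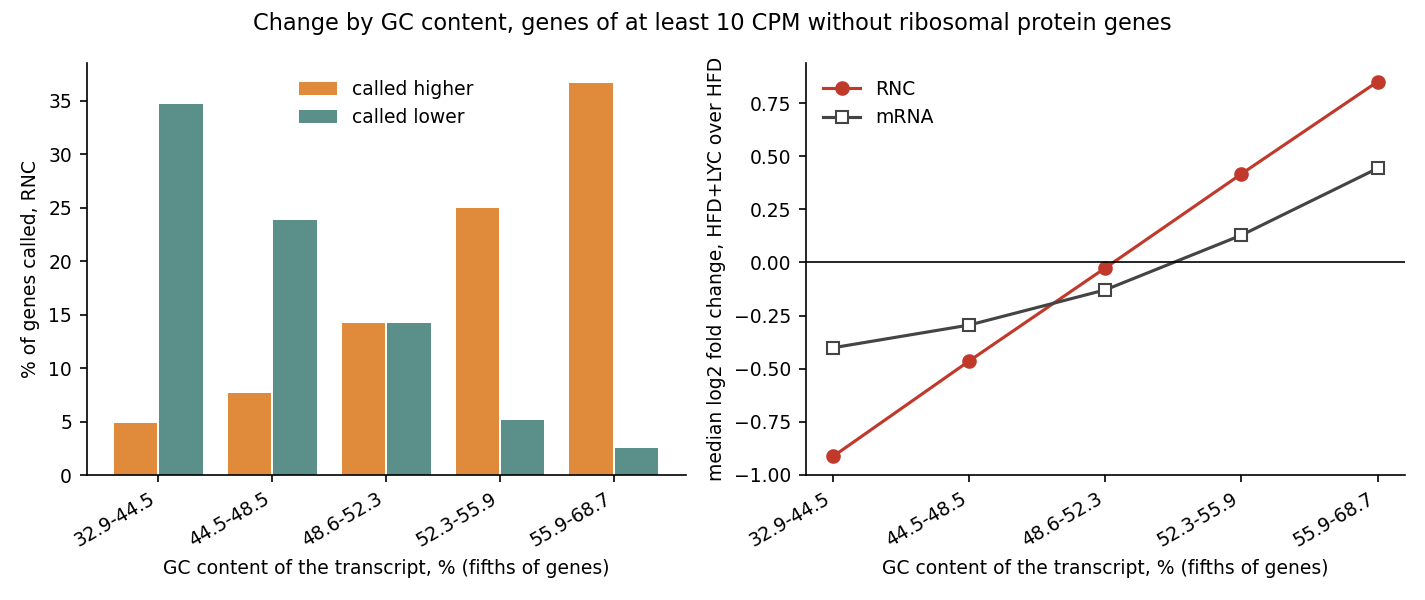
Well-counted genes without ribosomal protein genes in 5 equal bins of transcript GC content (%): the percentage called higher and lower in RNC (left), and the median log2 fold change of HFD+LYC over HFD in RNC and in mRNA (right). Calls pass from mostly lower at 32.9% to 44.5% GC to mostly higher at 55.9% to 68.7%, and the mRNA medians of the same livers slope the same way with a smaller range.

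Nearly all transcripts whose symbols begin with Rpl, Rps, Mrpl or Mrps fell in HFD+LYC RNC, against 3 of 8 for ribosomal proteins with other symbols. Of 173 tested genes with such a symbol 169 were lower, none was higher and the other 4 had log2 fold changes below 0. Of 8 ribosomal proteins with other symbols, a list added after the data were seen, 1 was higher, 3 were lower and the others missed the threshold. Over all genes 9.34% were higher and 17.4% lower. The median log2 fold change was -0.56 for these 8 and -4.36 for the genes with such a symbol. In mRNA 1 of 175 genes with such a symbol was called, and it was higher. The genes with such a symbol include kinases named for ribosomal protein S6, which are no part of the ribosome. Of these 8 of 8 tested were lower, none of them well-counted. Whether genes were set aside by symbol before the counts were deposited was not tested. Ribosomal proteins form the ribosome with rRNA, and in mammals the cytosolic ones have messages that begin with a 5' oligopyrimidine tract, through which growth signals control their translation. Of 85 cytosolic ribosomal protein genes tested, 83 were called lower in HFD+LYC RNC against 17.4% of all genes, with a median log2 fold change of -4.10. Together they took 0.0489% to 0.194% of the reads in HFD+LYC RNC and 1.83% to 2.00% in HFD RNC. Rpl10 (GRCm38, chromosome X, 74270816 to 74273135), a large-subunit protein, had 8.49, 11.1 and 6.29 CPM in the HFD+LYC livers, against 385, 429.6 and 533 CPM in the HFD livers (log2 fold change -5.71, SE 0.314, adjusted p = 1.43e-05). The groups did not overlap, and the control livers, with 495, 556 and 521 CPM, lay with HFD. Rpl15, another large-subunit protein, had 6.62, 6.91 and 8.17 CPM in the HFD+LYC livers, against 164, 179 and 212 CPM in the HFD livers (log2 fold change -4.67, SE 0.24, adjusted p = 1.43e-05). Rps6, the small-subunit protein that S6 kinases phosphorylate, had 7.45, 21.1 and 7.23 CPM in the HFD+LYC livers, against 289, 322 and 354 CPM in the HFD livers (log2 fold change -4.76, adjusted p = 0.000149). Rpl23a and Rpl27 fell too, with log2 fold changes of -4.92 and -4.59 (adjusted p = 1.43e-05 and 1.43e-05), and so did Rplp0, of the ribosomal stalk, at -4.28 (adjusted p = 0.000127).

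Mitochondrial ribosomal proteins, which are coded in the nucleus, translated in the cytosol and imported, fell as well. Of 79 tested, 75 were lower, with a median of -4.85. The 6 well-counted genes with no read in any HFD+LYC RNC library all belonged to this group. They were Mrps33, Mrps14, Mrpl48, Mrpl41, Mrps16 and Mrps31. Mrps33 (chromosome 6, 39801804 to 39810936), a small-subunit protein, had 0 reads in each HFD+LYC library, against 61.8, 61.2 and 70.1 CPM in HFD livers, at least 376-fold lower when HFD+LYC is set to the floor of 3 reads over the group. Mrps14 and Mrpl48 were at least 229-fold and 175-fold lower, and Mrpl41, Mrps16 and Mrps31 at least 131-fold, 127-fold and 126-fold. Mrpl51 kept a few reads, with 2.90, 3.45 and 4.69 CPM in the HFD+LYC livers, against 85.8, 74.7 and 81.2 CPM in the HFD livers (log2 fold change -4.43, SE 0.265, adjusted p = 1.43e-05). In mRNA of the same livers Mrps33 stood at 26.97, 17.1 and 52.3 CPM in HFD+LYC and 46.3, 48.4 and 57.3 CPM in HFD. In mRNA 1 of 85 cytosolic and none of 79 mitochondrial ribosomal protein genes was higher and none was lower, with medians of -0.18 and -0.26.

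The exceptions and the neighbours of this group by name were followed by gene lists added after the data were seen. Rack1, a scaffold protein of the small subunit, was the well-counted cytosolic member that was not called, with 231, 172 and 173 CPM in the HFD+LYC livers, against 173, 141 and 163 CPM in the HFD livers (log2 fold change 0.28, adjusted p = 0.393). With the GC correction Rack1 was called higher (log2 fold change 0.90, adjusted p = 0.0266). The remaining uncalled one, Rpl32l, was under 10 CPM, and was called lower without HFD+LYC replicate 1 (adjusted p = 0.0463). The mitochondrial members not called were Mrpl3, Mrpl19, Mrps18b and Dap3, a GTPase of the small subunit, which stood at 15.7, 25.5 and 11.4 CPM in HFD+LYC and 31.4, 28.3 and 25.5 CPM in HFD (log2 fold change -0.70, adjusted p = 0.137, and 0.0105 without HFD+LYC replicate 2). Mrpl3 and Mrps18b were called lower without HFD+LYC replicate 2 too (adjusted p = 0.00166 and 6.62e-05), and Mrpl19 without replicate 1 (adjusted p = 0.00968). Mrps18b was also called by limma-voom (adjusted p = 0.00651). Fau, which codes for a ribosomal protein fused to a ubiquitin-like protein, fell by 5.59-fold (adjusted p = 0.000104). The kinases named for ribosomal protein S6, whose symbols begin with Rps, are no part of the ribosome, and 8 of 8 tested were lower, none of them well-counted. Rps6ka1, a growth-factor kinase, had 0.207, 0 and 0 CPM in the HFD+LYC livers, against 12.2, 12.4 and 7.12 CPM in the HFD livers (log2 fold change -7.21, adjusted p = 0.00112), with 26.2 ± 3.44 CPM in HFD+LYC and 23.8 ± 7.04 CPM in HFD in mRNA (SD, n = 3 each). Rps6ka3 and Rps6kb1 fell likewise (89.2-fold and 15.98-fold, adjusted p = 0.00287 and 0.00361). In HFD RNC the highest of these kinases, Rps6kb1, averaged 15.4 CPM. Hnrnph2, a splicing regulator, was the gene outside the ribosome among the 12 largest falls, with 0, 0.384 and 0 CPM in the HFD+LYC livers, against 28.7, 33.2 and 44.5 CPM in the HFD livers (log2 fold change -8.12, adjusted p = 7.9e-05). Of 20 other genes whose messages begin with such a tract, translation factors among them, 8 were lower and 1 higher, against 17.4% and 9.34% of all genes, with a median of -0.62. The GC correction gave 4 higher and 1 lower. Leaving all ribosomal protein genes out before scaling left 2948 calls, 2925 of them shared with the fit of all genes.

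Many messages of proteins secreted into plasma were higher in HFD+LYC RNC and not called in mRNA. Of 39 abundant plasma protein genes 26 were higher in RNC and none lower, against 17.3% of well-counted genes called higher. Their median log2 fold change was 1.77 in RNC and -0.45 in mRNA, where edgeR called none (higher, 0 at an unadjusted p under 0.05 and 0 by DESeq2; lower, 4 at an unadjusted p under 0.05 and 2 by DESeq2). In RNC the lower side had 0 at an unadjusted p under 0.05 and 0 by DESeq2. Ahsg, which codes for fetuin-A, a mineral-binding plasma glycoprotein, had 25686, 6039 and 11184 CPM in the HFD+LYC livers, against 1427, 2065 and 2186 CPM in the HFD livers (log2 fold change 2.92, SE 0.526, adjusted p = 0.00428). All 3 HFD+LYC libraries lay above all HFD libraries. Replicate 1 lay highest by far in CPM, but its TMM factor of 0.428 was the lowest, and a lower factor raises CPM. Lrg1, a leucine-rich plasma glycoprotein, had 3477, 556 and 1238 CPM in the HFD+LYC livers, against 201, 152 and 133 CPM in the HFD livers (log2 fold change 3.44, adjusted p = 0.00394), and Serpina6, the corticosteroid-binding globulin, had 1455, 460.2 and 1252 CPM in HFD+LYC and 102, 225 and 152 CPM in HFD (log2 fold change 2.72, adjusted p = 0.00307). Fetub rose 7.73-fold (adjusted p = 0.00397). The RNC change of Ahsg exceeded its mRNA change by 3.72 on the log2 scale (adjusted p = 0.00261), and that of Lrg1 by 3.72 (adjusted p = 0.00244), by the interaction test over all 18 libraries.

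Apolipoproteins carry lipids in lipoproteins, and 14 of 21 genes of this list, all well-counted, were higher. Of well-counted genes 17.3% were higher, and of all genes 9.34%. The list's median was 1.49 in RNC and -0.19 in mRNA. Apoa1 (chromosome 9, 46228630 to 46230469), the main protein of high-density lipoprotein, had 128854, 33532 and 54214 CPM in the HFD+LYC livers, against 8802, 6087 and 6011 CPM in the HFD livers (log2 fold change 3.37, SE 0.538, adjusted p = 0.00265). Apoe, a ligand for lipoprotein receptors, took 5.83% to 9.82% of the reads of the HFD+LYC RNC libraries and 1.34% to 1.80% in HFD RNC, and had 211531, 50669 and 117628 CPM in HFD+LYC and 12906, 13423 and 11676 CPM in HFD (log2 fold change 3.32, adjusted p = 0.00332). Apoa5, which promotes triglyceride clearance, and Lcat, which esterifies cholesterol in high-density lipoprotein, rose 5.40-fold and 6.43-fold (adjusted p = 0.00429 and 0.00244). Of 49 acute phase, complement and coagulation genes 19 were higher and none lower, against 9.34% and 17.4% of all genes (on the lower side, 0 at an unadjusted p under 0.05 and 0 by DESeq2). Among its 46 well-counted members 19 were higher, against 17.3% of well-counted genes. Hp, haptoglobin, had 25430.0, 6102 and 12606 CPM in HFD+LYC and 2218, 1882 and 1441 CPM in HFD (log2 fold change 2.99, adjusted p = 0.0037). Coagulation factor F10 and complement C2 rose 6.70-fold and 5.14-fold (adjusted p = 0.00442 and 0.00472). In all 3 lists the order of the HFD+LYC libraries was the same in the summed CPM, with replicate 1 highest and replicate 2 lowest. As shares of reads without TMM scaling, the 3 lists together took 54.4%, 39.2% and 52.8% in HFD+LYC RNC replicates 1, 2 and 3. In HFD RNC they took 22.1% to 28.2%. Without HFD replicate 1, 2 or 3 the plasma protein list had 15, 14 or 14 members higher, without HFD replicate 2 or 3 the apolipoprotein list 8 or 7, and without HFD replicate 3 the acute phase list 10. Without HFD+LYC replicate 2 the acute phase list had 29 higher, and without replicate 1 it had 3 lower, while it had 36 higher and 0 lower with the GC correction. Without HFD+LYC replicate 1 the plasma protein list had 20 members higher, with a median of 1.05, and without replicate 2 it had 34, with a median of 2.11.

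Proteins of the endoplasmic reticulum and the lysosome enter the same secretory route. Of 34 genes of the unfolded protein response 4 were higher and 3 lower, against 9.34% and 17.4% of all genes. Corrected for GC content, the list had 12 higher and 1 lower, against 2 to 6 higher and 2 to 5 lower when 1 library was left out. Calr and P4hb, chaperones that fold secreted proteins, rose 5.24-fold and 3.62-fold (adjusted p = 0.00781 and 0.0114); P4hb missed the threshold without HFD replicate 2 (adjusted p = 0.0532). Herpud1, of endoplasmic reticulum-associated degradation, had 247, 229 and 230.4 CPM in the HFD+LYC livers, against 63.5, 86.6 and 71.3 CPM in the HFD livers (log2 fold change 1.67, adjusted p = 0.00397), and was also higher in mRNA (log2 fold change 1.82, adjusted p = 0.0261). Of 35 lysosome and autophagy genes 14 were higher and 3 lower, against 9.34% and 17.4% of all genes. Among the 34 well-counted members 14 were higher, against 17.3% of well-counted genes. After the GC correction there were 21 higher and 0 lower. The lysosomal protease Ctsd had 1495, 403 and 854 CPM in HFD+LYC and 139, 185 and 143 CPM in HFD (log2 fold change 2.56, adjusted p = 0.00323). Ctsz, another protease, rose 5.20-fold and Grn, progranulin, 7.59-fold (adjusted p = 0.00302 and 0.00109). None of the 35 was called in mRNA by edgeR (higher, 3 at an unadjusted p under 0.05 and 2 by DESeq2, and lower, 7 at an unadjusted p under 0.05 and 2 by DESeq2). By the interaction test 11 had an RNC change above the mRNA change, against 3.42% of all genes.

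**Figure D3:**
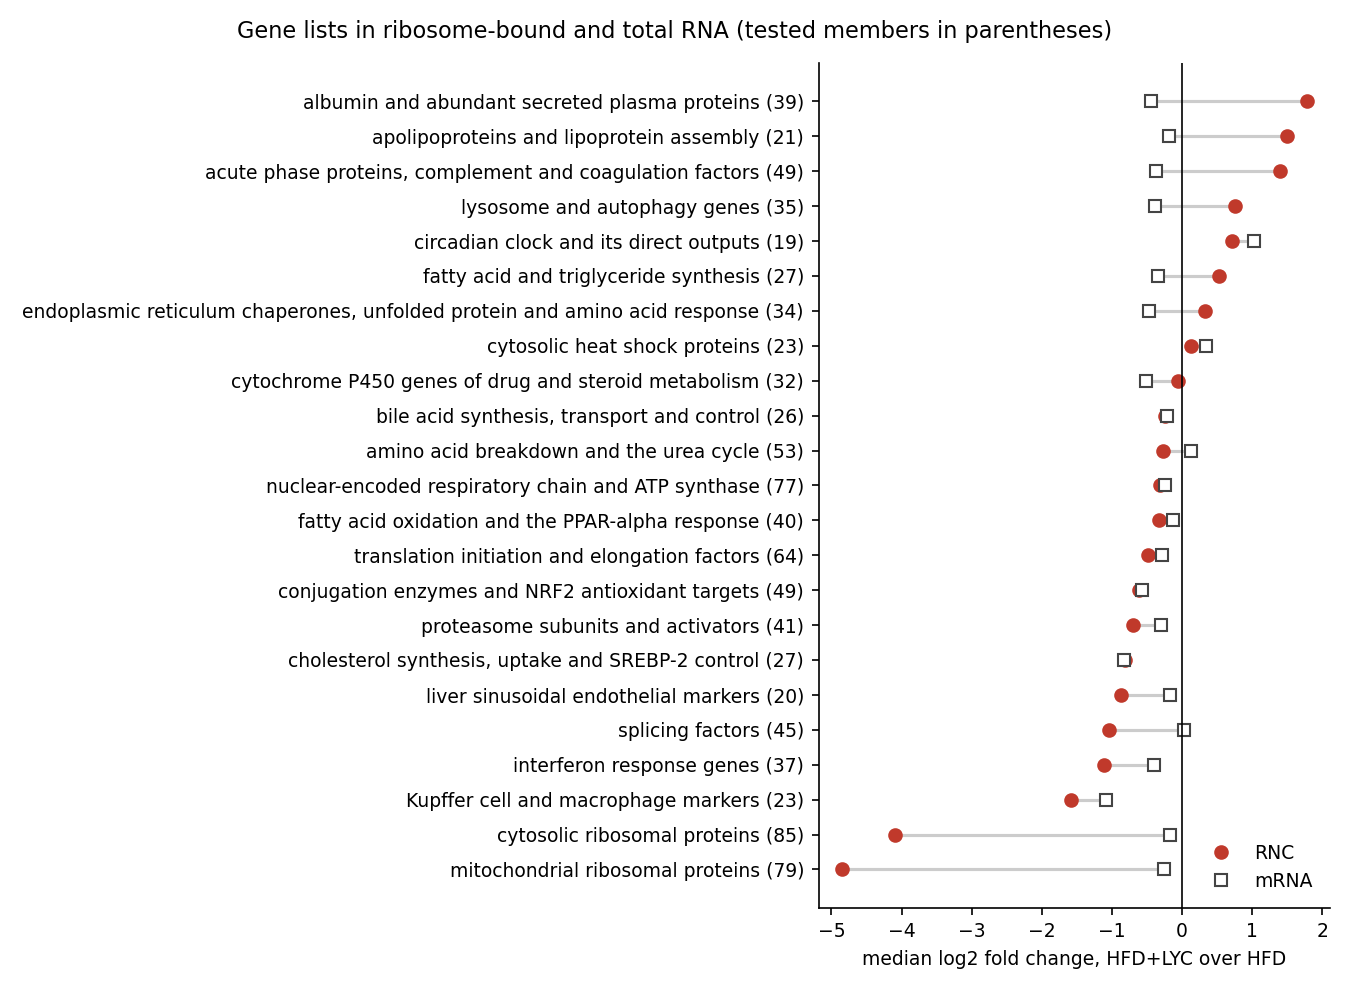
Median log2 fold change of HFD+LYC over HFD for 23 gene lists, with the tested members in parentheses: filled circles are RNC, open squares mRNA of the same livers. Cytosolic and mitochondrial ribosomal protein lists lie at -4.10 and -4.85 in RNC and at -0.18 and -0.26 in mRNA, lists of secreted proteins lie above 1 in RNC and below 0 in mRNA.

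The circadian clock is a loop in which Clock, Arntl and Npas2 proteins act through the E-box CACGTG. They drive a set of output genes and the Per and Cry genes, whose products repress them. The D-box TTATGTAA is bound by Tef and Dbp and by the repressor Nfil3. Promoter windows ran from 250 bases before to 50 after each RefSeq start on GRCm38.p6. Letters are given for Tef, Per1, Per3 and Ciart, with the motif in capitals. The E-box also lay in windows of Cry1 and Bhlhe41, which were not called in RNC, and in another window of Tef, whose letters are not given. Whether a motif went with a change was not tested. Each stretch reads 5' to 3' on the strand of its gene and ends before the start.
Tef, chr15:81802534-81802563, plus strand: gtgctgtggctcCACGTGctgcagctggca
Per1, chr11:69098771-69098800, plus strand: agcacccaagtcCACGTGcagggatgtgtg
Per3, chr4:151044804-151044882, minus strand: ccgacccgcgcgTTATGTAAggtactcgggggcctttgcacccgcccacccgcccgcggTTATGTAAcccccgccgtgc
Ciart, chr3:95882255-95882356, minus strand: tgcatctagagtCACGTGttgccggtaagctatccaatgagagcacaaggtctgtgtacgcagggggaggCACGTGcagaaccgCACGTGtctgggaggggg
CACGTG was held by 5 of the 17 clock genes with a window in RefSeq, as did 8.09% of all 27025 genes with one. The D-box TTATGTAA, sought on both strands, was held by 1 of 17, Per3, and by 1.11% of all genes. The E-box reads the same on both strands and does not overlap the D-box. Usp2, Dbp and Cry2 held neither in these windows.

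Of 19 clock genes tested in RNC, 6 were higher and 3 lower, against 9.34% and 17.4% of all genes, with 10 higher without HFD+LYC replicate 1 and 10 higher and 2 lower with the GC correction. Among the 14 well-counted members 6 were higher and 1, Nr1d2, was lower, against 17.3% of well-counted genes called higher. Npas2 and Nfil3 were under 10 CPM. Usp2 (chromosome 9, 44067021 to 44095627), a rhythmic deubiquitinase, rose most, with 164, 191 and 197 CPM in the HFD+LYC livers, against 0.159, 1.46 and 0.342 CPM in the HFD livers (log2 fold change 7.95, SE 0.613, adjusted p = 6.33e-05). Its 3 HFD+LYC values lay within a narrow range, and control livers, at 0.529, 1.11 and 0.698 CPM, lay with HFD. Tef and Dbp, which bind the D-box, had 127, 147 and 179.8 CPM in HFD+LYC and 32.6, 33.9 and 25.7 CPM in HFD (log2 fold change 2.30, adjusted p = 0.000334), and 88.4, 72.5 and 74.98 CPM in HFD+LYC and 2.54, 22.1 and 10.2 CPM in HFD (log2 fold change 2.74, adjusted p = 0.0075). In each no HFD+LYC liver overlapped an HFD liver. Per3 and Per1, of the repressing arm, had 22.97, 16.3 and 26.5 CPM in HFD+LYC and 1.11, 3.29 and 2.67 CPM in HFD (log2 fold change 3.19, adjusted p = 0.00298), and 8.69, 44.3 and 36.7 CPM in HFD+LYC and 2.70, 4.49 and 0.821 CPM in HFD (log2 fold change 3.48, adjusted p = 0.00739). Cry2, their partner, rose 3.34-fold (adjusted p = 0.0231), a call lost without HFD replicate 1, 2 or 3 (adjusted p = 0.0729, 0.0695 and 0.0844).

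Among the 3 lower genes, Npas2, a partner of Arntl, had no read in any HFD+LYC RNC library and 4.92, 1.08 and 2.05 CPM in HFD livers, at least 15.7-fold lower. Nfil3, a repressor at the D-box, had 0, 1.34 and 1.87 CPM in the HFD+LYC livers, against 12.9, 9.30 and 12.8 CPM in the HFD livers (log2 fold change -3.36, adjusted p = 0.00883), while its mRNA, at 70.4 ± 30.4 CPM in HFD+LYC and 43.96 ± 12.3 CPM in HFD (SD, n = 3 each), was not called. Nr1d2, a haem-binding repressor of Arntl, had 7.45, 18.4 and 13.1 CPM in HFD+LYC and 30.3, 33.2 and 39.7 CPM in HFD (log2 fold change -1.40, adjusted p = 0.0134), a call lost without HFD replicate 3 (adjusted p = 0.0638) and with the GC correction (log2 fold change 0.07). In an edgeR fit of the 6 compared libraries Nfil3, Nr1d2 and Cry2 were not called (adjusted p = 0.0943, 0.0596 and 0.0641). The RNC change minus the mRNA change was -4.10 for Nfil3 and -2.01 for Nr1d2 on the log2 scale (adjusted p = 0.00262 and 0.00793; for Nr1d2 0.0562 without HFD replicate 3 and 0.236 with the GC correction). For Clock the RNC change lay above the mRNA change by 2.01 (adjusted p = 0.00137). Clock stood at 25.04, 43.2 and 35.6 CPM in HFD+LYC and 17.2, 21.7 and 24.7 CPM in HFD in RNC (adjusted p = 0.0925, with 0.0184 without HFD+LYC replicate 1 and 0.000222 with the GC correction). It was lower in mRNA (log2 fold change -1.38, adjusted p = 0.0198).

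Of the clock genes not called in RNC, Per2 was at 16.6, 11.1 and 20.2 CPM in HFD+LYC and 9.69, 6.96 and 5.89 CPM in HFD (adjusted p = 0.096; 0.0326 without HFD+LYC replicate 2). No HFD+LYC liver overlapped an HFD liver for Per2. Arntl was at 3.10, 0 and 0 CPM in HFD+LYC and 6.99, 2.72 and 6.16 CPM in HFD (adjusted p = 0.205); without HFD+LYC replicate 1 it was called lower (adjusted p = 0.00184). Nr1d1, Rora, Bhlhe40, Bhlhe41, Hlf and Cry1 had log2 fold changes of -0.94, 0.64, 0.62, 1.75, -0.10 and 0.06 with adjusted p from 0.235 to 0.974. Rora was called higher without HFD+LYC replicate 1 (adjusted p = 0.0414) and with the GC correction (log2 fold change 2.19, adjusted p = 0.000951). Hlf turned to a call in the other direction with the GC correction (log2 fold change 1.17, adjusted p = 0.00899). Ciart, a further clock repressor, did not pass the filter on low counts in RNC and was not tested there, with 0, 49 and 121 reads in HFD+LYC and 0, 4 and 0 in HFD libraries. In mRNA 8 of 20 clock genes were higher and 2 lower, against 1.99% and 0.916% of all genes. No source used here gives the time of day of sampling.

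**Figure D4:**
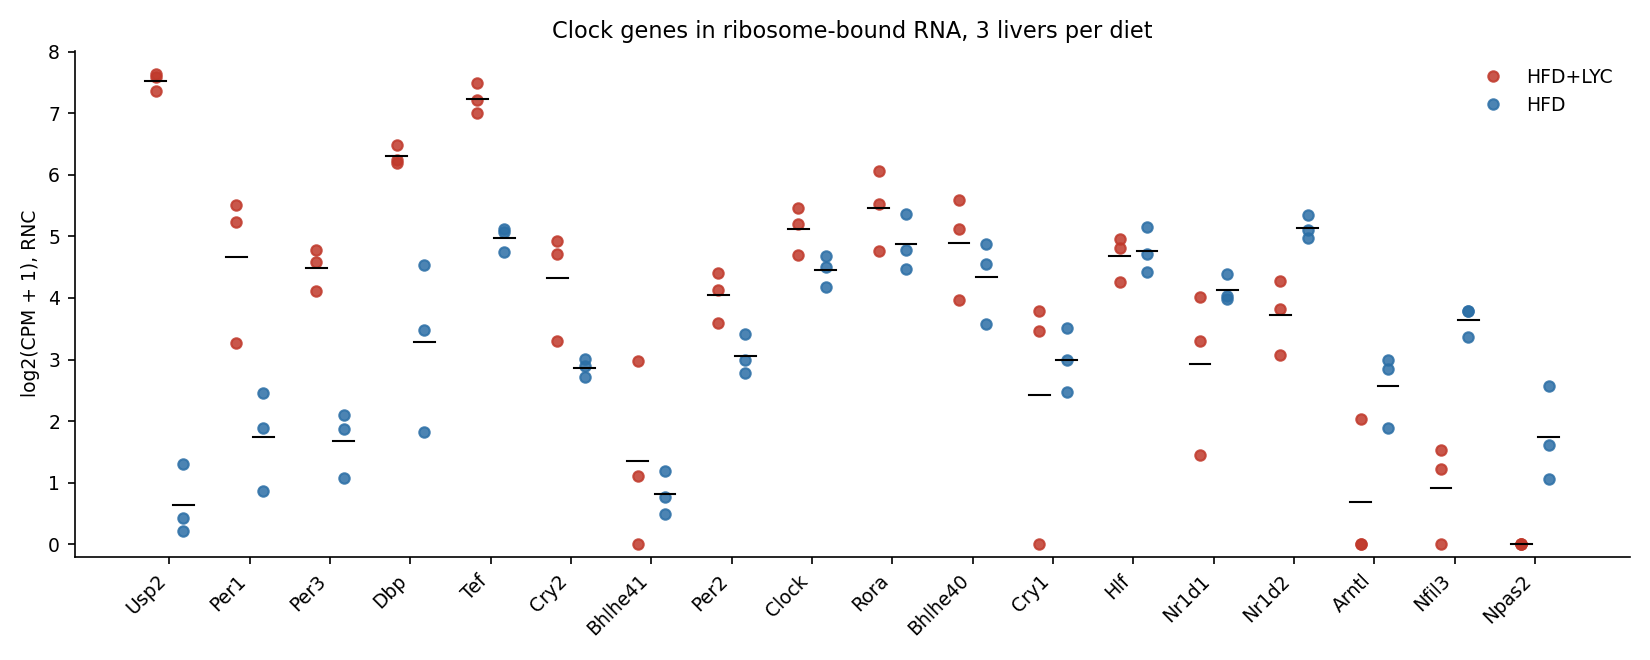
Level of 18 clock genes in ribosome-bound RNA as log2(CPM + 1), 3 HFD+LYC livers (left of each pair) and 3 HFD livers, with lines at the mean. Usp2, Per1, Per3, Dbp, Tef and Cry2 lie higher in all HFD+LYC livers, and Nr1d2, Nfil3 and Npas2 lower.

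Genes that build fat moved in both directions. Of 27 fatty acid and triglyceride synthesis genes 10 were higher and 6 lower, against 9.34% and 17.4% of all genes. Under the GC correction it had 9 higher and 2 lower, against 6 to 11 higher and 3 to 6 lower when 1 library was left out. Lpin1 (chromosome 12, 16535669 to 16653903), a phosphatidate phosphatase that makes diacylglycerol, had 459.9, 479 and 633 CPM in the HFD+LYC livers, against 18.3, 15.6 and 15.9 CPM in the HFD livers (log2 fold change 4.98, SE 0.41, adjusted p = 8.3e-05). Elovl6, which elongates palmitate, had 552, 569 and 747 CPM in the HFD+LYC livers, against 45.1, 85.04 and 78.6 CPM in the HFD livers (log2 fold change 3.16, adjusted p = 0.000268). Both were also higher in mRNA, by 3.21 and 2.17 on the log2 scale (adjusted p = 0.00494 and 0.0175). Dgat2, which adds the last fatty acid of a triglyceride, rose 2.47-fold (adjusted p = 0.00335). Malic enzyme Me1, which supplies NADPH, fell 7.17-fold, with 91.1, 56.6 and 78.2 CPM in HFD+LYC and 372, 592 and 655 CPM in HFD (adjusted p = 0.000516). The list's median log2 fold change was 0.53 in RNC and -0.34 in mRNA.

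Of 27 cholesterol genes 12 were lower and 3 higher, against 17.4% and 9.34% of all genes, with 5 lower without HFD replicate 3 and medians of -0.82 in RNC and -0.83 in mRNA, where edgeR called none (lower, 11 at an unadjusted p under 0.05 and 8 by DESeq2). Sqle, squalene epoxidase, had 4.35, 0 and 1.07 CPM in the HFD+LYC livers, against 29.9, 39.99 and 49.8 CPM in the HFD livers (log2 fold change -4.51, adjusted p = 0.00461). Insig2, which holds the sterol sensor in the endoplasmic reticulum, had 55.7, 65.6 and 27.6 CPM in HFD+LYC and 213, 377 and 362 CPM in HFD (log2 fold change -2.68, adjusted p = 0.00117). Idi1 and Hsd17b7, of the isoprenoid and sterol steps, fell by 5.96-fold and 4.84-fold (adjusted p = 0.00776 and 0.00487). With the GC correction Idi1 and Hsd17b7 were not called (adjusted p = 0.349 and 0.0911), 4 of the list were lower and 2 higher, and its median lay -0.26 from that of all genes.

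Of 40 fatty acid oxidation and PPAR-alpha response genes 10 were lower and 1 higher, against 17.4% and 9.34% of all genes. The GC correction gave 6 higher and 4 lower. Acadm, the medium-chain dehydrogenase of beta-oxidation, had 62.9, 72.3 and 40.03 CPM in the HFD+LYC livers, against 219, 365 and 286 CPM in the HFD livers (log2 fold change -2.32, adjusted p = 0.000801). Its RNC change lay below its mRNA change (difference -2.29, adjusted p = 0.00141, and 0.0761 with the GC correction and the animal block). Etfdh, which passes electrons from these dehydrogenases to ubiquinone, had 20.1, 21.7 and 23.3 CPM in HFD+LYC and 53.2, 169.9 and 107 CPM in HFD (log2 fold change -2.34, adjusted p = 0.00356), and Hsd17b4 of peroxisomal oxidation fell 3.60-fold (adjusted p = 0.000508). The member that rose was Angptl4, a fasting-induced inhibitor of lipoprotein lipase, with 951, 157 and 449 CPM in the HFD+LYC livers, against 47.5, 50.2 and 44.6 CPM in the HFD livers (log2 fold change 3.45, adjusted p = 0.00374). Of 28 lipid droplet genes 3 were higher and 6 lower, against 9.34% and 17.4% of all genes. Corrected for GC content, the list had 5 higher and 1 lower, against 2 to 5 higher and 3 to 8 lower when 1 library was left out. Mgll, which splits monoacylglycerol in the last step of fat breakdown, had 729, 1159 and 1214 CPM in the HFD+LYC livers, against 128, 208 and 137 CPM in the HFD livers (log2 fold change 2.71, adjusted p = 0.000557), with mRNA at 268 ± 42.8 CPM in HFD+LYC and 243 ± 53.8 CPM in HFD (SD, n = 3 each; not called). Plin2, the coat protein of liver droplets, and Fabp2, a fatty acid carrier, fell 3.33-fold and 4.82-fold (adjusted p = 0.00527 and 0.0029). Abhd5, the co-activator of fat lipase, fell 3.03-fold (adjusted p = 0.0095). Fabp2 and Abhd5 were not called with the GC correction (adjusted p = 0.146 and 0.515), and Abhd5 not by limma-voom (adjusted p = 0.0773).

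**Figure D5:**
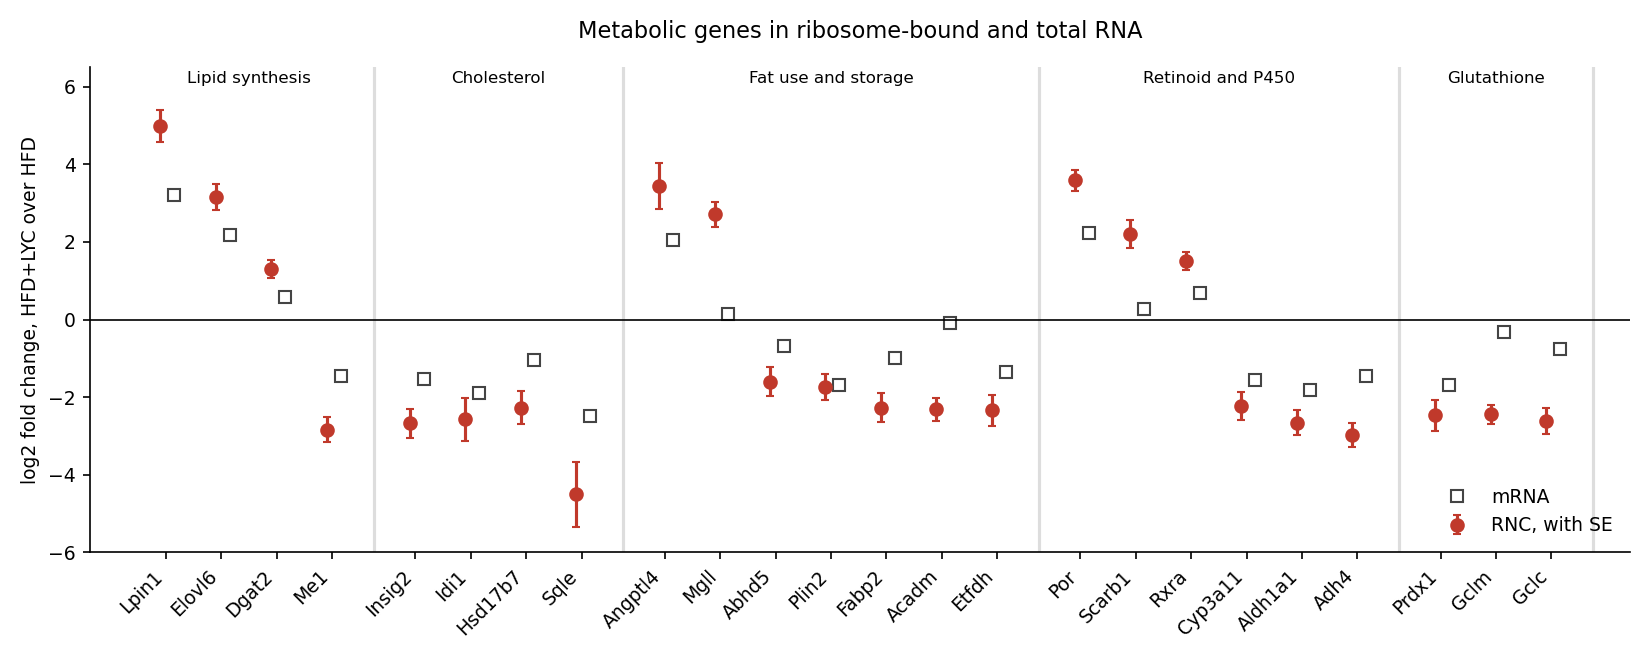
Log2 fold change of HFD+LYC over HFD for 24 metabolic genes in RNC (filled circles, with the standard error) and in mRNA (open squares). Lpin1, Elovl6, Dgat2, Angptl4, Mgll, Por, Scarb1 and Rxra lie above 0 and the other 16 below 0 in RNC.

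Enzymes that handle carotenoids and retinoids were tested as a list of 30, of which 3 were higher and 5 lower, against 9.34% and 17.4% of all genes. After the GC correction there were 9 higher and 3 lower, against 3 to 8 higher and 5 to 9 lower when 1 library was left out. Scarb1, a receptor that takes up high-density lipoprotein and carotenoids, had 283, 95.3 and 205 CPM in the HFD+LYC livers, against 36.5, 49.04 and 40.99 CPM in the HFD livers (log2 fold change 2.20, adjusted p = 0.00302). Rxra, the partner of nuclear receptors for retinoids and fatty acids, had 268, 318 and 313 CPM in HFD+LYC and 105, 114 and 97.999 CPM in HFD (2.83-fold, adjusted p = 0.00192). Aldh1a1, which makes retinoic acid, and Adh4, a retinol dehydrogenase, had 171, 303 and 207 CPM in HFD+LYC and 1072, 1804 and 1423 CPM in HFD (log2 fold change -2.66, adjusted p = 0.000566), and 6.83, 14.2 and 9.91 CPM in HFD+LYC and 67.7, 93.3 and 82.2 CPM in HFD (log2 fold change -2.97, adjusted p = 0.000257). Adh4 was lower in mRNA too (log2 fold change -1.46, adjusted p = 0.0327). The oxygenases that cleave carotenoids were not called. Bco2, which acts on lycopene, was at 7.45, 15.5 and 11.9 CPM in HFD+LYC and 22.4, 17.3 and 17.3 CPM in HFD (adjusted p = 0.16) and Bco1, which acts on beta-carotene, at 5.59, 9.40 and 22.5 CPM in HFD+LYC and 1.59, 4.56 and 3.15 CPM in HFD (adjusted p = 0.0518); Bco2 was called lower without HFD+LYC replicate 2 (adjusted p = 0.0403), and Bco1 higher by DESeq2 (adjusted p = 0.00691) and without HFD+LYC replicate 1 or 2 (adjusted p = 0.0116 and 0.0325).

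Of 32 cytochrome P450 genes 4 were higher and 5 lower, against 9.34% and 17.4% of all genes. Under the GC correction it had 8 higher and 0 lower, against 2 to 6 higher and 3 to 8 lower when 1 library was left out. Por, the reductase that supplies these enzymes with electrons, had 407, 427 and 449.6 CPM in the HFD+LYC livers, against 46.7, 34.7 and 25.8 CPM in the HFD livers (log2 fold change 3.59, SE 0.276, adjusted p = 5.31e-05), and was higher in mRNA (log2 fold change 2.24, adjusted p = 0.0161). Cyp3a11, a main drug and steroid hydroxylase, had 412, 406 and 261 CPM in HFD+LYC and 1699, 1793 and 1564 CPM in HFD (log2 fold change -2.23, adjusted p = 0.00267), and Cyp3a25 and Cyp2j5 fell 3.18-fold and 2.74-fold (adjusted p = 0.00435 and 0.00492). None of these 3 was called with the GC correction (adjusted p = 0.299, 0.957 and 0.852), and Cyp2j5 turned to 0.11. Of 49 conjugation and NRF2 target genes 12 were lower and 4 higher, against 17.4% and 9.34% of all genes. The GC correction gave 13 higher and 5 lower. Gclc and Gclm, the subunits of the enzyme that limits glutathione synthesis, had 46.8, 101 and 45.1 CPM in HFD+LYC and 351, 425 and 405 CPM in HFD (log2 fold change -2.62, adjusted p = 0.000843), and 29.2, 27.6 and 21.02 CPM in HFD+LYC and 115, 151 and 158 CPM in HFD (log2 fold change -2.45, adjusted p = 0.000193). For both the RNC change lay below the mRNA change, with differences of -1.93 and -2.18 (adjusted p = 0.0041 and 0.00164), but not past the threshold with the GC correction (adjusted p = 0.114 and 0.129). The peroxide-removing Prdx1 and the sulfotransferase Sult1a1 fell 5.55-fold and 2.76-fold (adjusted p = 0.0029 and 0.00227), but not with the GC correction (adjusted p = 0.128 and 0.173).

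Among 53 genes that break down amino acids or make urea 15 were lower and 7 higher, against 17.4% and 9.34% of all genes, but 11 higher and 2 lower with the GC correction, and 9 were lower without HFD replicate 2. Oat, ornithine aminotransferase, had 115, 164 and 103 CPM in the HFD+LYC livers, against 950.1, 857 and 683 CPM in the HFD livers (log2 fold change -2.70, adjusted p = 0.00037). Cth, which makes cysteine from cystathionine, Kynu and Tdo2, both of tryptophan breakdown, fell 5.98-fold, 3.82-fold and 4.34-fold (adjusted p = 0.000773, 0.000289 and 0.000784), but were not called with the GC correction (adjusted p = 0.0616, 0.393 and 0.201). Asl, of the urea cycle, and Sds, serine dehydratase, rose 3.52-fold and 5.04-fold (adjusted p = 0.00131 and 0.00212), as they did in mRNA (adjusted p = 0.0372 and 0.0326). Pigr, the receptor that carries immunoglobulin A into bile, had 3289.7, 2358 and 2482 CPM in HFD+LYC and 291, 439.5 and 385 CPM in HFD (log2 fold change 2.87, adjusted p = 0.000197). Bile acid genes had 7 of 26 lower and none higher, against 17.4% and 9.34% of all genes (0 at an unadjusted p under 0.05 and 0 by DESeq2). They had 5 higher and 3 lower with the GC correction and 3 higher without HFD+LYC replicate 2. Amacr and Hsd3b7, of bile acid synthesis, fell 3.80-fold and 3.40-fold (adjusted p = 0.00193 and 0.00265), and Baat, which conjugates bile acids, 2.89-fold (adjusted p = 0.00131; 0.571 with the GC correction). Of 34 glucose genes 7 were higher and 5 lower, against 9.34% and 17.4% of all genes. Corrected for GC content, the list had 9 higher and 1 lower, against 1 to 8 higher and 1 to 8 lower when 1 library was left out. Foxo1, the insulin-restrained activator of gluconeogenesis, had 42.6, 66.9 and 67.8 CPM in HFD+LYC and 18.7, 14.9 and 11.3 CPM in HFD (log2 fold change 1.99, adjusted p = 0.00173), and Ugp2, which feeds glycogen synthesis, fell 4.62-fold (adjusted p = 0.00234; 0.236 with the GC correction). Igf1, the growth factor that growth hormone induces in liver, had 2492, 2751 and 2406 CPM in the HFD+LYC livers, against 578, 400.4 and 574 CPM in the HFD livers (log2 fold change 2.30, SE 0.262, adjusted p = 0.000418), and Elovl3, a male-biased elongase, fell 2.43-fold (adjusted p = 0.0128; 0.384 with the GC correction and 0.0586 without HFD replicate 3).

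In genes of protein synthesis and turnover outside the ribosome the balance of calls changed with the GC correction, as it did over all genes. Of 64 translation factors 20 were lower and 8 higher, against 17.4% and 9.34% of all genes, with 12 and 12 lower without HFD replicate 2 and 3, and a median of -0.48. Eif5b, the GTPase of subunit joining, had 368, 504 and 427 CPM in the HFD+LYC livers, against 35.6, 30.6 and 48.5 CPM in the HFD livers (log2 fold change 3.50, SE 0.283, adjusted p = 7.01e-05), and Eif4g3, a scaffold of the cap complex, rose 6.08-fold (adjusted p = 0.000417). Eif3e fell 3.41-fold (adjusted p = 0.000906; 0.553 with the GC correction), and with that correction the list had 13 higher and 3 lower. Dars, the aspartyl-tRNA synthetase, had 6.002, 7.86 and 9.37 CPM in HFD+LYC and 49.2, 59.2 and 63.4 CPM in HFD (log2 fold change -2.88, adjusted p = 0.000103). Of 41 proteasome genes 16 were lower and 2 higher, against 17.4% and 9.34% of all genes. After the GC correction there were 6 higher and 7 lower. Psma1, a subunit of the core ring, had 7.45, 6.71 and 1.61 CPM in the HFD+LYC livers, against 58.3, 120.1 and 109.7 CPM in the HFD livers (log2 fold change -4.22, adjusted p = 0.000817), and Psma6 and Psma2 of the same ring fell 3.72-fold and 3.48-fold (adjusted p = 0.000855 and 0.000799; for Psma2 0.725 with the GC correction). Psmd1, of the regulatory cap, was higher, with 239, 373 and 337 CPM in HFD+LYC and 60.99, 68.3 and 66.9 CPM in HFD (log2 fold change 2.27, adjusted p = 0.000295). Of 45 splicing factors 12 were lower and 1 higher, against 17.4% and 9.34% of all genes. They had 4 higher and 3 lower with the GC correction, 7 lower without HFD replicate 3 and 21 without HFD+LYC replicate 2. Srsf5 and Srsf9, serine-arginine splicing regulators, fell 4.95-fold and 29.4-fold (adjusted p = 0.000257 and 0.00356), and Hnrnpc fell 2.38-fold (adjusted p = 0.00365), with 0.21 on the log2 scale under the GC correction.

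Of 77 nuclear genes of the respiratory chain and ATP synthase 23 were lower and 8 higher, against 17.4% and 9.34% of all genes. Under the GC correction it had 14 higher and 5 lower. Atp5f1, of the ATP synthase stalk, had 37.9, 43.4 and 30.3 CPM in HFD+LYC and 159, 391 and 327 CPM in HFD (log2 fold change -2.98, adjusted p = 0.000556), while Atp5d, of its rotor, had 466, 742 and 731 CPM in HFD+LYC and 218, 173 and 192 CPM in HFD (log2 fold change 1.73, adjusted p = 0.00178). Cox7b and Uqcrc2, of the oxidase and the cytochrome bc1 complex, fell 4.75-fold and 2.80-fold (adjusted p = 0.000878 and 0.00258), but not with the GC correction (adjusted p = 0.198 and 0.859). Of 23 heat shock genes 4 were higher and 3 lower, against 9.34% and 17.4% of all genes. Among the 20 well-counted members 4 were higher, a share close to the 17.3% of well-counted genes. The GC correction gave 8 higher and 0 lower, against 3 to 5 higher and 1 to 4 lower when 1 library was left out. Hspa1b, the inducible chaperone with a near-identical copy in Hspa1a, had 42.2, 53.3 and 44.5 CPM in HFD+LYC and 1.27, 7.53 and 9.51 CPM in HFD (log2 fold change 2.90, adjusted p = 0.00765), the co-chaperone Bag3 rose 2.97-fold (adjusted p = 0.00366), and Fkbp5, a glucocorticoid-induced co-chaperone, rose 5.81-fold (adjusted p = 0.00222), as in mRNA (log2 fold change 3.25, adjusted p = 0.00146). Hsp90aa1 fell 4.88-fold (adjusted p = 0.00218; 0.0902 with the GC correction).

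Markers of macrophages, sinusoidal endothelium and stellate cells were lower where called, at shares to be read against 17.4% of all genes called lower and 9.34% higher. Red cell markers had 2 of 8 higher and 1 lower. The list of bile duct markers had 3 of 6 higher and 1 lower. It holds Ambp, Krt8 and Krt18, which are not particular to bile duct cells, and its called members include Ambp and Krt18. In whole liver, fewer cells of a type and less RNA per cell cannot be told apart. Of 23 Kupffer cell and macrophage markers 7 were lower and none higher (0 at an unadjusted p under 0.05 and 0 by DESeq2), of them 5 among the 14 well-counted, with 0 higher and 3 lower with the GC correction and 3 lower without HFD replicate 2. The list had medians of -1.59 in RNC and -1.08 in mRNA and a summed level of 244.9 to 376.5 CPM in HFD+LYC and 505.4 to 923 CPM in HFD. Slc40a1, the iron exporter ferroportin, had 15.3, 25.5 and 19.5 CPM in HFD+LYC and 61.9, 107 and 78.4 CPM in HFD (log2 fold change -2.04, adjusted p = 0.00122), and Cd5l, a macrophage-secreted protein, 18.6, 28.6 and 13.1 CPM in HFD+LYC and 34.9, 91.7 and 54.3 CPM in HFD (log2 fold change -1.59, adjusted p = 0.0143). The complement component C1qc fell 4.74-fold (adjusted p = 0.00655; 0.0545 by limma-voom). With the GC correction Slc40a1 and Cd5l missed the threshold (adjusted p = 0.0639 and 0.083), as Cd5l did without HFD replicate 2 (adjusted p = 0.0616). Of 20 sinusoidal endothelial markers 4 were lower, near the share of all genes, with 1 higher and 0 lower with the GC correction and 2 lower without HFD replicate 2 or 3. These included the scavenger receptors Mrc1 and Stab2, which fell 4.23-fold and 3.46-fold (adjusted p = 0.00185 and 0.0151; 0.31 and 0.0525 with the GC correction, and 0.138 for Stab2 by limma-voom). Of 20 stellate cell and collagen genes 6 were lower, 4 of them among the 8 well-counted. Corrected for GC content, the list had 0 higher and 4 lower. The matrix proteoglycan Dcn had 4.14, 20.9 and 17.1 CPM in HFD+LYC and 102, 144 and 157 CPM in HFD (log2 fold change -3.25, adjusted p = 0.00236), and Colec11 and Sparc fell 4.31-fold and 2.95-fold (adjusted p = 0.00106 and 0.00461). Of 37 interferon response genes 14 were lower and 1 higher, against 17.4% and 9.34% of all genes, and of the 16 well-counted ones 5 were lower and 1 higher, with a median of -0.55 against -1.11 over the list. The list had 4 higher and 9 lower with the GC correction, and 8 and 9 lower without HFD replicate 2 and 3. Irgm1, an immunity-related GTPase, had 0, 1.15 and 6.43 CPM in HFD+LYC and 58.8, 63.4 and 50.2 CPM in HFD (log2 fold change -4.40, adjusted p = 0.0048), Psmb9, of the immunoproteasome, fell 27.5-fold (adjusted p = 0.00133) and Irf9, a mediator of interferon signals, 2.76-fold (adjusted p = 0.00704).

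Transcripts of heart muscle were counted in HFD+LYC RNC and were at or near 0 in HFD RNC. Myh6 (chromosome 14, 54941921 to 54968017), the heavy chain of cardiac myosin, had 67.1, 37.02 and 27.2 CPM in the HFD+LYC livers, against 0, 0 and 0 CPM in the HFD livers, at least 535-fold higher when HFD is set to the floor of 3 reads over the group (adjusted p = 0.000268). Ttn, the giant spring protein of muscle, had 50.9, 56.4 and 28.1 CPM in HFD+LYC and 0, 0.0633 and 0.274 CPM in HFD (log2 fold change 8.28, adjusted p = 0.000443), and Myh7, the slow myosin heavy chain, was at 29.2, 7.48 and 9.24 CPM in HFD+LYC and 0, 0 and 0 CPM in HFD. Mb, myoglobin, was at 10.3, 3.26 and 2.95 CPM in HFD+LYC and 0, 0 and 0 CPM in HFD (adjusted p = 0.0162), a call lost without HFD replicate 2 or 3 (adjusted p = 0.063 and 0.0638). In the mRNA of the same HFD+LYC livers Myh6, Myh7 and Mb had 0 reads and Ttn 2, 3 and 3 reads. Of the heart muscle list described below, 4 members were tested in mRNA. Their log2 fold changes were 1.15 to 3.23, and 1 was called higher. The fast skeletal genes Ckm, Myh1, Myh2 and Pvalb had 0 reads in all 6 RNC libraries. Of 18 heart muscle genes, a list added after the data were seen, 6 passed the filter on low counts, which they could pass through the HFD+LYC libraries alone; Myl3, Nppb and Pln had 0 reads in the 6 RNC libraries. The summed level of those that passed was 83.8 to 179 CPM in HFD+LYC and 0.476 to 0.753 CPM in HFD. The part of such RNA in other results was not tested.

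Noncoding RNAs were among the largest changes. The libraries were prepared as poly(A) libraries, and the part of poly(A) selection in the counts of these RNAs was not tested. Rpph1, the RNA of ribonuclease P, had 445, 299 and 526 CPM in the HFD+LYC livers, against 24.6, 1.65 and 1.92 CPM in the HFD livers (log2 fold change 5.56, adjusted p = 0.00928), and Rmrp, the RNA of the related ribonuclease MRP, had 36.6, 24.7 and 72.97 CPM in HFD+LYC and 1.43, 0 and 0.0684 CPM in HFD (log2 fold change 6.94, adjusted p = 0.00385). In mRNA their log2 fold changes were -2.74 and -5.22 (adjusted p = 0.144 and 0.0753). Malat1, a long nuclear RNA, had 443, 444 and 364 CPM in HFD+LYC and 74.01, 17.4 and 27.9 CPM in HFD (log2 fold change 3.40, adjusted p = 0.00171), against -1.82 in mRNA (adjusted p = 0.0842). Mir22hg, the host transcript of a microRNA, had no read in HFD+LYC RNC and 17.2, 10.8 and 16.6 CPM in HFD, at least 86.7-fold lower, while its mRNA stood at 111 ± 28.1 CPM in HFD+LYC and 82.4 ± 35.6 CPM in HFD (SD, n = 3 each).

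Of the 12 largest rises among well-counted genes, those not yet named were Ctcfl, Hipk2, Gm5088, Ubn2, Erdr1, Syt11 and Zbtb7a, with log2 fold changes from 5.11 to 7.43. Ctcfl, a germline paralog of the chromatin factor CTCF, had 31.9, 23.2 and 30.9 CPM in the HFD+LYC livers, against 0, 0.253 and 0.137 CPM in the HFD livers (log2 fold change 7.43, adjusted p = 0.000417), and was higher in mRNA as well (log2 fold change 4.71, adjusted p = 0.00146). Zbtb7a, a transcriptional repressor, had 162, 334 and 448 CPM in the HFD+LYC livers, against 10.5, 8.73 and 8.14 CPM in the HFD livers (log2 fold change 5.11, adjusted p = 7.03e-05), with mRNA at 50.1 ± 17.4 CPM in HFD+LYC and 22.8 ± 4.42 CPM in HFD (SD, n = 3 each). Hipk2, a kinase of stress signalling, had 19.5, 44.5 and 64.4 CPM in HFD+LYC and 0.318, 1.01 and 0.411 CPM in HFD (log2 fold change 6.09, adjusted p = 0.000574), with -0.39 on the log2 scale in mRNA (adjusted p = 0.656). Ubn2, a partner of a histone chaperone, had 369.8, 229 and 322 CPM in HFD+LYC and 8.26, 4.30 and 7.25 CPM in HFD (log2 fold change 5.55, adjusted p = 2.06e-05).

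Over the 18 libraries the RNC change lay above the mRNA change for 440 of 12872 genes (3.42%) and below it for 1676, which together are 16.4% of the genes tested. Without HFD replicate 2 or 3 the 2116 calls came to 1405 or 1289. Among the well-counted genes 358 (6.3%) lay above and 481 (8.46%) below. This fit did not pair the RNC and mRNA libraries of a liver. With the animal as a block 327 of the 12872 genes lay above and 1300 below. Mrpl4, of the mitochondrial large subunit, had the smallest p, with a difference of -8.72 (adjusted p = 4.52e-07); it stood at 0, 0 and 0.134 CPM in HFD+LYC and 20.5, 23.4 and 20.4 CPM in HFD in RNC and at 48.1 ± 11.1 CPM in HFD+LYC and 38.5 ± 4.05 CPM in HFD in mRNA (SD, n = 3 each). Samd4b, which represses the translation of bound messages, was the gene outside the ribosome among the 5 with the smallest p, at 148, 132 and 148 CPM in the HFD+LYC livers, against 8.26, 4.94 and 5.89 CPM in the HFD livers in RNC, with a difference of 4.18 (adjusted p = 3.32e-06). Of the 3087 genes called in RNC and tested in both, 155 were called in mRNA, which is 5.02% of the RNC calls and 44.8% of the 346 mRNA calls, and 153 of the 155 had the same direction. These shares depend on the mRNA fit, whose 368 calls came to 1491 by DESeq2 and 1457 with the replicate block. The RNC and mRNA changes of the well-counted genes had a Pearson's r of 0.436 and a Spearman's rho of 0.473 over 5684 genes of the same 6 livers, which are not independent replicates.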

How the data were processed

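Ribosome-bound and total liver RNA was prepared as poly(A) libraries, per the labels' protocols. Bcl2fastq and the mm10 build are named per the submitters' processing notes; which aligner and counter were used is not given in these sources. Reads had been mapped to RefSeq RNA sequences and splice variants merged per gene, per the file headers and the design text. The authors deposited per library a read count per gene, which was used for every test, and an RPKM value, which the authors deposited beside it and which was not tested. Replicates are livers, 3 per diet and kind of RNA. Depth was 4533729 to 12742436 reads over the 6 compared libraries; bounds against a floor of 3 reads cover counting error only. Near-identical copies (ribosomal pseudogenes, Cyp3a and Hspa1 genes) may share reads. No source used here names a batch.

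Tests used edgeR 4.0.16 in R 4.3.3: filterByExpr (minimum count 10, minimum total count 15), TMM scaling and robust quasi-likelihood fits over the 9 RNC libraries, the 9 mRNA libraries, or all 18 for the difference between the RNC and the mRNA change, with Benjamini-Hochberg adjusted p under 0.05 called. The scripts were tested on simulated data. Alternatives used DESeq2 1.42.0, limma 3.58.1 (voom), other scaling, other filters, a replicate block, leaving out each library, leaving out ribosomal protein genes, and a GC correction, the last 2 chosen after seeing the data. In RNC replicate numbers did not pair the diets: deviations from the group means of same-numbered HFD+LYC and HFD RNC libraries correlated at 0.0143, 0.0363 and -0.0633. In mRNA this was not checked, and the replicate block there gave 1457 calls against 368. RNC and mRNA libraries of 1 liver share an animal code in their deposited names, so the fit with the animal as a block was run for the difference; it made 1627 calls against 2116.

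The members and 44 gene lists were chosen with earlier results of these data known; 7 lists were added after the values were seen. Named genes are, among called genes of at least 10 CPM without overlap between the diets, the 12 largest rises and the 12 largest falls; up to 4 called genes with the smallest p per list; every clock gene; and the 5 genes with the smallest p for the difference, of which a part is given. Ciart, Rps6, Rplp0, Bco1, Bco2, the heart muscle genes other than Myh6 and Ttn, the uncalled ribosomal protein genes and members of the added lists were named after their values were seen. Promoter letters are from RefSeq on GRCm38.p6, and 24462 of 24539 gene names matched RefSeq. Values of 2 list members are not reported here.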

Additional observations from a re-analysis of the deposited data

Results flagged for a closer look

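Each value here is the log2 RNC change minus the log2 mRNA change of HFD+LYC over HFD, and was picked out because edgeR's interaction test over the 18 libraries found the changes to differ. The RNC change was above the mRNA change for 440 genes and below it for 1676, and with the animal as a block for 327 and 1300. It was above for Rmrp by 12.07, for Rpph1 by 8.22 and for Malat1 by 5.13 (adjusted p = 0.000653, 0.00372 and 0.000266), all noncoding RNAs, and for Mir22hg, which had no read in HFD+LYC RNC, the fitted difference was -11.03 (adjusted p = 1.38e-05), which is no bound. The part of poly(A) selection in the differences of these RNAs was not tested.

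Of the clock genes the differences were -4.10 for Nfil3, -2.01 for Nr1d2 and 2.01 for Clock (adjusted p = 0.00262, 0.00793 and 0.00137). Mgll, of fat breakdown, had 2.51, Psmd1, of the proteasome, 2.44 and the sulfotransferase Sult1a1 -2.39 (adjusted p = 0.000832, 0.000652 and 0.00129). With 3 livers per group no single library could be tested as far from the others.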

How the results depend on the processing

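Of the 133 named genes called in RNC, 101 kept their call under every alternative run, 30 lost it under at least 1 and 3 changed sign under the GC correction (Nr1d2 did both). All 133 kept it by DESeq2, with relative log expression or upper-quartile factors, with no low-count filter and with the replicate block. The GC correction ended 23 of these calls and turned 3 (Nr1d2 0.0737, Cyp2j5 0.11, Hnrnpc 0.21), and it turned Hlf, not called before, to 1.17; for Hnrnpc the RNC change minus the mRNA change turned to 0.0526, and to 0.0617 with the animal block. The correction also called Clock, Rora, Rack1 and Bco1 higher, which were not called before. Of the 3120 calls in RNC the GC correction shared 2136, 7 of them in the opposite direction. Calls in RNC came to 1790 in a fit of the 6 compared libraries and to 971 in a fit of genes of at least 50 CPM, and ranged from 2107 to 4633 when 1 library was left out. For well-counted genes the 2008 calls came to 861 at 50 CPM and 1226 with 6 libraries, with a range of 1214 to 2572. The 368 mRNA calls came to 1491 by DESeq2 and 1457 with the replicate block, with a range of 66 to 606. The 2116 genes whose RNC and mRNA changes differed came to 918 and 488 in fits of genes of at least 10 and 50 CPM, with a range of 1289 to 2931. Of 82 named genes whose changes differed, 45 kept that call under every alternative run and 37 lost it under at least 1. Without HFD replicate 2 and 3 the calls lost were 20 and 22. The fits of fewer genes or libraries test fewer genes or estimate the spread from fewer samples; otherwise the cause was not tested. With the replicate block RNC calls came to 2734, and replicate numbers did not pair the diets in RNC. Under 10 CPM, the missing reads of HFD+LYC RNC limit what can be said of a single gene.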
